A study of Mus musculus with 12 samples.

Results

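Retinoic acid signalling was followed through 9 genes named for it: the synthesising enzyme Aldh1a2, the carriers Crabp1 and Crabp2, the receptors Rara, Rarb, Rarg, Rxra and Rxrb, and the clearing enzyme Cyp26b1. They were taken by name from the 36119 genes of the deposited table, and all 9 were among the 14947 tested, whose mean level was 1 TPM or more. The libraries came from whole hippocampus of C57BL/6 mice at postnatal day 70, in 4 groups of 3. Enriched ethanol mice had received ethanol at 2.5 g/kg in 0.15 M saline under the skin, as 2 injections given 2 hours apart on postnatal days 6 and 7, and from day 21 lived in large cages with same-sex littermates, running wheels and toys. Enriched saline mice had the same cages after saline injections. Standard ethanol mice had the ethanol injections and standard cages. Standard saline mice had saline injections and standard cages. The labels call the exposure prenatal although the injections they describe came after birth. They give neither sex nor litter for a mouse, so a p-value here reflects how the sampled libraries vary and may miss variation between litters.

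Retinoic acid is made from vitamin A in a pair of oxidation steps, retinol to retinal and retinal to the acid, and the second is carried out by ALDH1A enzymes. Inside the cell the acid is held by CRABP proteins, enters the nucleus and binds a retinoic acid receptor (RAR), which sits on DNA as a pair with a retinoid X receptor (RXR), and CYP26 enzymes oxidise it to end the signal. In the brain, retinoids are known for patterning the embryonic nervous system and for roles in synaptic plasticity of the adult hippocampus, where the meninges are a known source of the acid.

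RAR and RXR pairs bind direct repeats of a core site of 6 bases. The stretches from 250 bases before to 50 bases after the start of transcription were taken from RefSeq on GRCm38.p6, which had entries for 8 of the 9 genes in 14 windows. The core site was searched on both strands as AGGTCA or AGTTCA and, with a leading G, as GGGTCA or GGTTCA. A single core site was present in 43.7% of all 32544 such windows, and a repeat spaced by 1 base in 0.224%, by 2 bases in 0.270% and by 5 bases in 0.0983%. Rarb was the 1 gene of the 8 with a repeat in its window. The repeat was spaced by 5 bases, ran in the direction of the gene and began at position -53 from the start, and a further single site lay at -83. The Rarb window is printed because it holds the repeat, and the Aldh1a2 window because that gene's fold change was the largest of the 9 and its window held 0 core sites. Each is written 5′ to 3′ along the strand of its gene, with core sites in capitals. Rarb is at chr14:16575427-16575726 on the minus strand and Aldh1a2 at chr9:71215539-71215838 on the plus strand.
Rarb: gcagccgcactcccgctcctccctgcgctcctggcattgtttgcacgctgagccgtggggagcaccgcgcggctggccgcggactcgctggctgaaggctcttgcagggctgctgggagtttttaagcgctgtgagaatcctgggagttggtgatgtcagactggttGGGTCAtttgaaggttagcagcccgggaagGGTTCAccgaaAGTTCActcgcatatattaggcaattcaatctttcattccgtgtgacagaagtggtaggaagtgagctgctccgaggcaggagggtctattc
Aldh1a2: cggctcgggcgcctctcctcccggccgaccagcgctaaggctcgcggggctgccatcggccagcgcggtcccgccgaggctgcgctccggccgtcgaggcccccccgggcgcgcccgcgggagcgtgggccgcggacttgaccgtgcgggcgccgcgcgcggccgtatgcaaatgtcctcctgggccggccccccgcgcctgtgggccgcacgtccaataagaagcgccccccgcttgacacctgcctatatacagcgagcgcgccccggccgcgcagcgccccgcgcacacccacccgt
The Aldh1a2 window was 78.0% G and C with 50 CpG pairs, against medians of 53.0% and 7 over all windows. A match of letters is a description of the sequence and was not tested for binding.

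In level, the RXR genes led. Deposited TPM, which is per transcript length and so can be set side by side between genes, averaged 39.5 for Rxrb, 16.3 for Rxra and 8.72 for Rara over the 12 libraries, and the ranges of these 3 did not overlap. Aldh1a2 at 7.12, Rarg at 6.39, Crabp2 at 6.35, Cyp26b1 at 6.06 and Rarb at 4.37 followed with overlapping ranges, and Rara was above Aldh1a2 in 7 of 12 libraries. Crabp1 at 1.29 was below Rarb in all 12 libraries. The genes also differed in how far they varied. The highest library had 1.21 times the lowest for Rxrb and 1.32 times for Rxra, but 4.37 times for Rarg, 5.27 times for Crabp1, 7.21 times for Aldh1a2 and 8.13 times for Crabp2. The spread within groups on the log2 scale was above that of 98.1% of the 1752 genes of like level for Crabp2, of 97.0% of 1788 for Rarg and of 96.7% of 1855 for Aldh1a2, and above that of 12.99% of 2709 for Rxra.

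**Figure D1:**
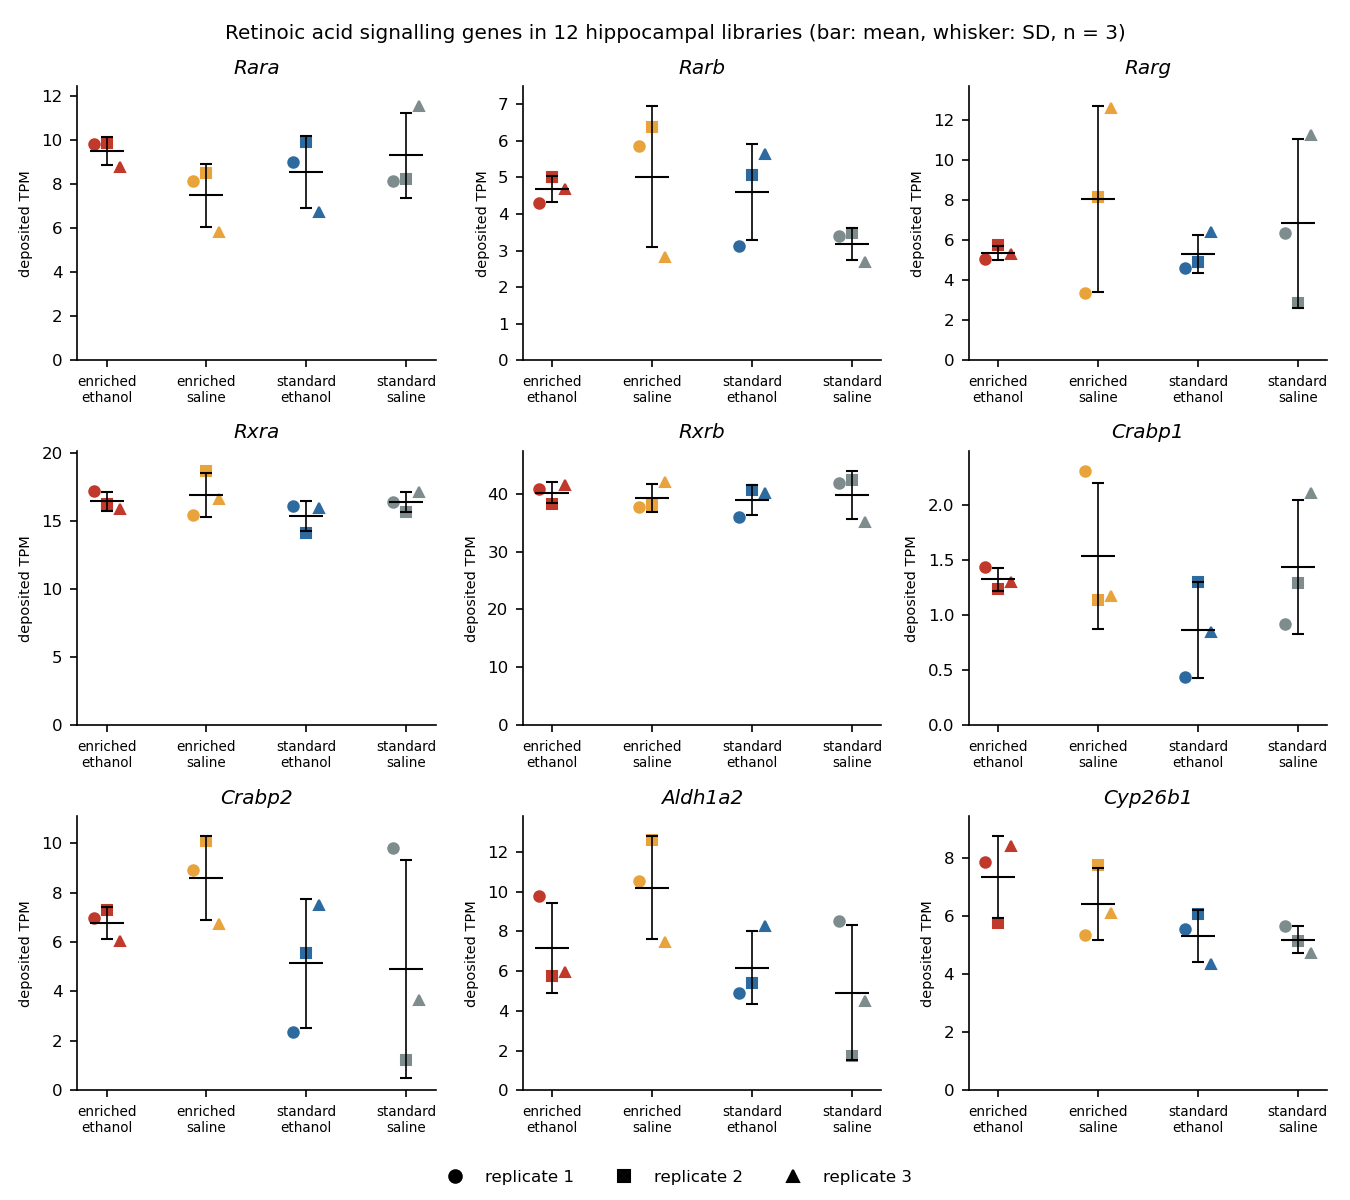
Deposited TPM (y axis, from 0) of each of the 9 genes in the 4 groups (x axis), with 1 point per library, a bar at the mean and whiskers of 1 SD (n = 3). Rxra and Rxrb sit in narrow bands, while Crabp2, Aldh1a2 and Rarg spread widely within groups, with standard saline replicate 2 lowest for all 3.

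The libraries were first checked against their labels. The hippocampal markers Prox1, Zbtb20 and Fibcd1 were present in all 12, at 18.7 to 41.9, 94.7 to 164 and 39.7 to 77.8 TPM. 2 libraries stood apart most in their tissue markers. Enriched saline replicate 2 held 7503 TPM of Ttr, made by choroid plexus, against 385 in standard ethanol replicate 1 and 20.8 to 118 elsewhere. Summed choroid plexus markers were 7864 TPM in enriched saline replicate 2, 449 TPM in standard ethanol replicate 1 and 40.2 to 146 TPM in the rest. Standard ethanol replicate 1 was left out of refits only on its own. Standard saline replicate 2 had the lowest summed level of 12 meningeal fibroblast markers, 41.1 TPM, and the highest of dentate granule cell markers, 415 TPM against 221 to 308 TPM elsewhere. That library was also lowest in summed markers of thalamus and habenula (45.5 TPM) and of neocortex (58.4 TPM). It was highest in those of CA pyramidal cells (730 TPM against 548 to 715 TPM elsewhere).

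No retinoic acid signalling gene passed the test in any comparison. limma with Benjamini-Hochberg adjustment called 0 of 9 genes for ethanol against saline in standard cages (0.0134% of all genes were called), in enriched cages (0%) and averaged over housing (0.0134%). It called 0 of 9 for enriched against standard cages in saline mice (0.0268% of all genes), in ethanol mice (0.00669%) and averaged over exposure (0.0201%), and 0 of 9 for the interaction (0.0134%). At an unadjusted p under 0.05 the ethanol comparisons held 0 of 9 in standard cages, 0 in enriched cages and 0 on average, beside 7.39%, 7.76% and 8.02% of all genes, and the interaction held 0 of 9 beside 7.41%. The housing comparisons held 1 of 9 in saline mice (Aldh1a2, beside 10% of all genes), 1 in ethanol mice (Cyp26b1, beside 5.57%) and 2 on average (the same 2 genes, beside 7.96%). A p above the threshold does not show that the groups were alike, and the intervals below give the sizes these data allow.

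**Figure D2:**
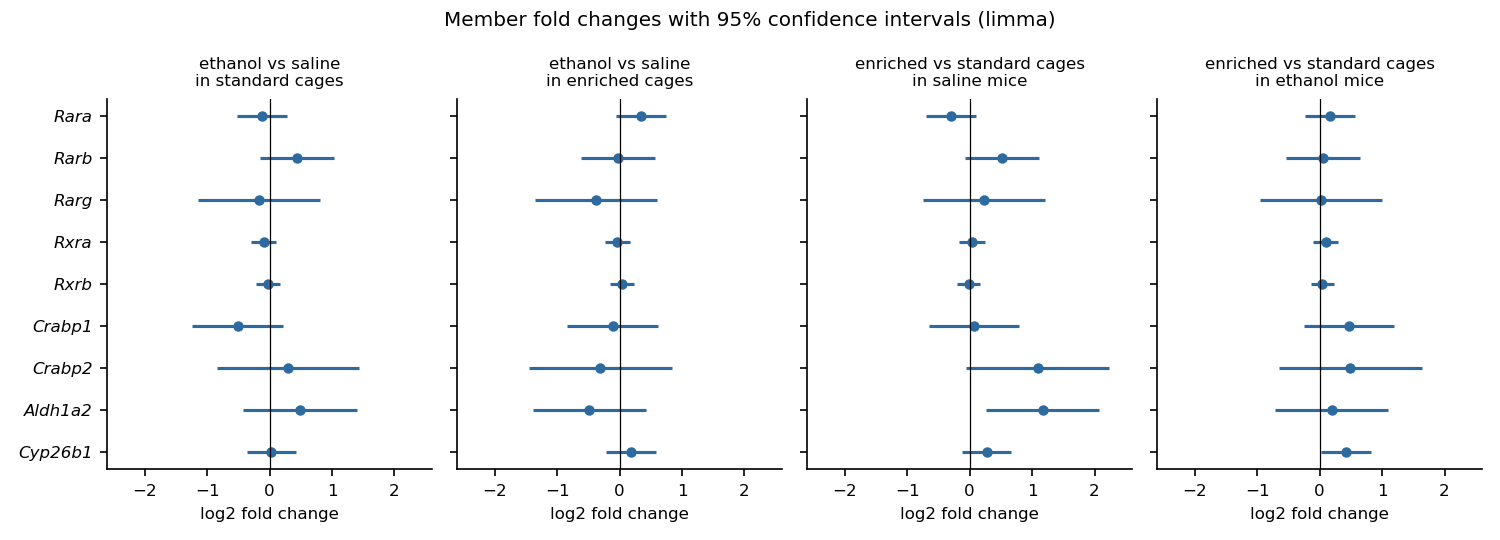
log2 fold change (x axis, positive when higher in ethanol or in enriched mice) of the 9 genes (y axis) in 4 comparisons, with points at the limma estimate and lines for the 95% confidence interval. Intervals are shortest for Rxrb and Rxra and longest for Crabp2, Rarg and Aldh1a2, and those of Aldh1a2 and Cyp26b1 leave 0 in 1 panel each.

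Aldh1a2 (ENSMUSG00000013584, GRCm38 as for the other genes, chr9:71215789-71296243, plus strand) makes retinoic acid from retinal. Its level was 9.79, 5.77 and 5.97 TPM in enriched ethanol hippocampus, 10.55, 12.59 and 7.47 TPM in enriched saline hippocampus, 4.88, 5.41 and 8.26 TPM in standard ethanol hippocampus and 8.51, 1.75 and 4.49 TPM in standard saline hippocampus. The highest was enriched saline replicate 2 and the lowest standard saline replicate 2, the libraries that stood apart, and the groups overlapped. The log2 fold change of enriched over standard cages in saline mice was 1.17 (95% confidence interval 0.27 to 2.08, 2.25-fold, adjusted p = 0.416, limma). It ran from 0.64 without standard saline replicate 2 to 1.65 without standard saline replicate 1, and was 0.48 without both libraries that stood apart (adjusted p = 0.780, limma). In ethanol mice the enriched over standard value was 0.20 (interval -0.71 to 1.10), and between -0.04 and 0.41 with 1 library left out. Ethanol over saline was -0.49 in enriched cages (interval -1.39 to 0.42) and 0.49 in standard cages (interval -0.42 to 1.39). In standard cages, leaving out standard saline replicate 2 gave -0.04 and leaving out standard saline replicate 1 gave 0.96, so the sign rested on 1 library. Without both libraries that stood apart, ethanol over saline was -0.33 in enriched cages and -0.04 in standard cages. The interaction was -0.98 (interval -2.26 to 0.31, adjusted p = 0.741, limma), -0.45 without standard saline replicate 2 and -0.29 without both libraries.

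Crabp2 (ENSMUSG00000004885, chr3:87948666-87953376, plus strand) is a carrier that delivers retinoic acid to RAR in the nucleus. It stood at 6.96, 7.32 and 6.05 TPM in enriched ethanol hippocampus, 8.92, 10.09 and 6.75 TPM in enriched saline hippocampus, 2.35, 5.55 and 7.51 TPM in standard ethanol hippocampus and 9.81, 1.24 and 3.65 TPM in standard saline hippocampus. The lowest library was standard saline replicate 2, the highest enriched saline replicate 2, and standard saline overlapped every other group. Enriched over standard cages in saline mice gave a log2 fold change of 1.09 (interval -0.05 to 2.24, adjusted p = 0.514, limma), which was 0.46 without standard saline replicate 2, 1.74 without standard saline replicate 1 and 0.34 without both libraries that stood apart. Ethanol over saline was -0.31 in enriched cages (interval -1.45 to 0.84) and 0.30 in standard cages (interval -0.85 to 1.44). In standard cages, leaving out standard saline replicate 2 gave -0.34, leaving out standard ethanol replicate 3 gave -0.02 and leaving out standard saline replicate 1 gave 0.94. In enriched cages the value ran from -0.46 to -0.19, the lowest with enriched saline replicate 3 left out and the highest with enriched saline replicate 2 left out.

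Crabp1 (ENSMUSG00000032291, chr9:54764748-54773110, plus strand) is a carrier that holds retinoic acid in the cytoplasm. It was the lowest gene of the 9, at 1.44, 1.24 and 1.30 TPM in enriched ethanol hippocampus, 2.31, 1.14 and 1.17 TPM in enriched saline hippocampus, 0.44, 1.31 and 0.85 TPM in standard ethanol hippocampus and 0.92, 1.29 and 2.11 TPM in standard saline hippocampus. At this level the groups overlapped, and the 0.5 added before taking log2 shrinks a fold change. Ethanol over saline was -0.11 in enriched cages (interval -0.84 to 0.61) and -0.51 in standard cages (interval -1.24 to 0.21). In enriched cages the value ran from -0.25 without enriched saline replicate 2 to 0.14 without enriched saline replicate 1. In standard cages it ran from -0.74 to -0.27, with standard ethanol replicates 2 and 1 left out in turn.

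Among the RARs, Rara (ENSMUSG00000037992, chr11:98927818-98974942, plus strand) is the receptor linked to synaptic scaling in neurons. Its level was 9.84, 9.88 and 8.79 TPM in enriched ethanol hippocampus and 8.14, 8.50 and 5.85 TPM in enriched saline hippocampus. All 3 enriched ethanol libraries were above all 3 enriched saline ones, the 1 gene of 9 in that comparison without overlap, beside 15.2% of all genes. Without overlap were 0 of 9 for ethanol over saline in standard cages (12.1% of all genes) and 0 of 9 for enriched over standard cages in saline mice (14%) and in ethanol mice (12%). The log2 fold change was 0.34 (interval -0.06 to 0.74, adjusted p = 0.675, limma), and 0.18 without enriched saline replicate 3, the lowest library. In standard cages Rara stood at 9.02, 9.90 and 6.73 TPM in ethanol mice and 8.13, 8.25 and 11.54 TPM in saline mice, a log2 fold change of -0.12 (interval -0.51 to 0.28) that ran from -0.22 to 0.04 with 1 library left out, and was above 0 when standard saline replicate 3 or standard ethanol replicate 3 was missing. The interaction was 0.45 (interval -0.11 to 1.02, adjusted p = 0.729, limma), and between 0.30 and 0.56 with 1 library left out.

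Rarb (ENSMUSG00000017491, chr14:16430839-16819156, minus strand) is itself a textbook target of retinoic acid through the repeat in its promoter, printed above. It stood at 4.31, 5.02 and 4.69 TPM in enriched ethanol hippocampus, 5.85, 6.38 and 2.82 TPM in enriched saline hippocampus, 3.13, 5.07 and 5.63 TPM in standard ethanol hippocampus and 3.40, 3.47 and 2.68 TPM in standard saline hippocampus. Standard saline mice averaged lowest, with enriched saline replicate 3 and standard ethanol replicate 1 reaching into their range. Ethanol over saline in standard cages was 0.44 (interval -0.15 to 1.04, adjusted p = 0.764, limma) and enriched over standard cages in saline mice was 0.52 (interval -0.07 to 1.11, adjusted p = 0.546, limma). The value for ethanol ran from 0.29 without standard ethanol replicate 3 to 0.67 without standard ethanol replicate 1, and that for housing from 0.32 without enriched saline replicate 2 to 0.85 without enriched saline replicate 3. The gene overlaps Top2b on the other strand. The kit kept strand, but the strand setting of the counting was not given.

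Rarg (ENSMUSG00000001288, chr15:102234938-102257517, minus strand), the RAR best known from skin, varied most within groups among the receptors. Enriched ethanol hippocampus had 5.05, 5.74 and 5.30 TPM, enriched saline hippocampus 3.38, 8.18 and 12.63 TPM, standard ethanol hippocampus 4.63, 4.92 and 6.40 TPM and standard saline hippocampus 6.38, 2.89 and 11.24 TPM. Each saline group held a library above all ethanol libraries and one below all ethanol libraries. Ethanol over saline averaged over housing was -0.27 (interval -0.96 to 0.41, adjusted p = 0.871, limma). It ran from -0.52 without enriched saline replicate 1 to -0.06 without standard saline replicate 3, and was -0.46 without both libraries that stood apart. No test of the difference in spread was run.

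The RXRs are partners shared with many other nuclear receptors, and they were the steadiest genes. Rxra (ENSMUSG00000015846, chr2:27676440-27762957, plus strand) stood at 17.2, 16.3 and 15.9 TPM in enriched ethanol hippocampus, 15.4, 18.7 and 16.6 TPM in enriched saline hippocampus, 16.1, 14.1 and 15.97 TPM in standard ethanol hippocampus and 16.4, 15.7 and 17.1 TPM in standard saline hippocampus. Ethanol over saline was -0.03 in enriched cages (interval -0.24 to 0.17) and -0.09 in standard cages (interval -0.29 to 0.11). Rxrb (ENSMUSG00000039656, chr17:34031812-34038399, plus strand) averaged 40.2 ± 1.76 TPM in enriched ethanol, 39.2 ± 2.42 in enriched saline, 38.9 ± 2.55 in standard ethanol and 39.8 ± 4.09 TPM in standard saline hippocampus (SD, n = 3 each). Its ethanol over saline value was 0.04 in enriched cages (interval -0.15 to 0.23) and -0.03 in standard cages (interval -0.22 to 0.16). These RXR values are small, and with 1 library left out they lay between -0.12 and 0.09. The sign turned for Rxra in enriched cages without enriched saline replicate 2 (0.04) and for Rxrb in standard cages without standard ethanol replicate 1 (0.03), standard saline replicate 2 (0.02) or standard saline replicate 1 (0.01).

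Cyp26b1 (ENSMUSG00000063415, chr6:84571414-84593908, minus strand) clears retinoic acid and is the CYP26 enzyme best known from the adult brain. It stood at 7.85, 5.76 and 8.41 TPM in enriched ethanol hippocampus, 5.35, 7.76 and 6.10 TPM in enriched saline hippocampus, 5.54, 6.08 and 4.34 TPM in standard ethanol hippocampus and 5.67, 5.13 and 4.73 TPM in standard saline hippocampus. The 3 highest libraries were enriched, and the ranges overlapped. Enriched over standard cages was 0.42 in ethanol mice (interval 0.03 to 0.82, adjusted p = 0.886, limma), 0.27 in saline mice (interval -0.13 to 0.67) and 0.35 averaged over exposure (interval 0.07 to 0.63, adjusted p = 0.585, limma). The value in saline mice was 0.13 without enriched saline replicate 2, the library high in choroid plexus markers. Ethanol over saline was 0.10 averaged over housing (interval -0.18 to 0.38), and ran from 0.05 without enriched saline replicate 1 to 0.18 without enriched ethanol replicate 2.

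As a group, 9 of 9 genes had a value above 0 for enriched over standard cages in ethanol mice, where 48.2% of all genes did, and 7 of 9 did in saline mice, where 50.9% of all genes did. The median log2 fold change of the 9 was 0.16 in ethanol mice and 0.23 in saline mice, against -0.01 and 0.00 over all genes. Without both libraries that stood apart, 6 of 9 were above 0 in saline mice and their median was 0.13, and without standard saline replicate 2 alone the median was 0.04. In ethanol mice 6 of 9 were above 0 without standard ethanol replicate 1, with Rarb, Rarg and Rxrb below 0 and a median of 0.06, and the median was 0.10 without enriched ethanol replicate 1. For ethanol over saline, 3 of 9 were above 0 in enriched cages (48.1% of all genes) and 4 of 9 in standard cages (50.7%). Without both libraries that stood apart these were 5 and 3 of 9. The genes are not independent of each other, and these counts carry no test.

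Of the 36 pairs of these genes, 1 moved together past the threshold: Crabp2 and Aldh1a2. Their Pearson r over the 12 libraries was 0.91 (permutation p = 2e-05, adjusted 0.00072) and Spearman rho 0.90 (permutation p = 0.00011, adjusted 0.00396). Without the 2 libraries farthest from the median of Crabp2, standard ethanol replicate 1 and standard saline replicate 2, r was 0.84. With each value centred on its group's mean r was 0.89. Without both libraries that stood apart r was 0.78 and no longer passed (permutation adjusted p = 0.135). The other pairs had permutation adjusted p-values of 0.634 or above for Pearson r and 0.335 or above for Spearman rho.

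**Figure D3:**
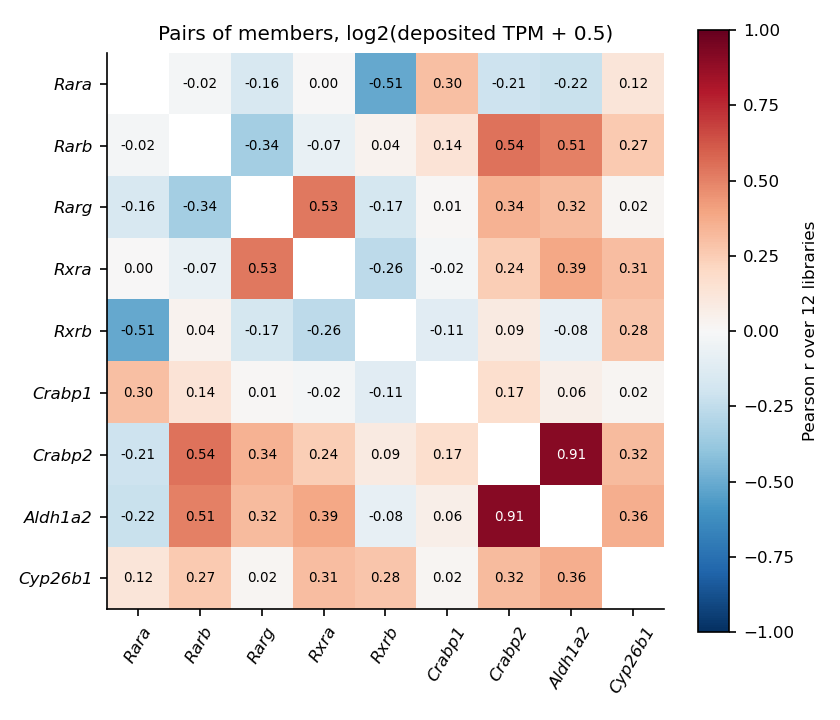
Pearson r over 12 libraries between each pair of the 9 genes (both axes), on log2(deposited TPM + 0.5), with red for positive and blue for negative values. The Crabp2 and Aldh1a2 cell, 0.91, is the only one past the threshold.

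Aldh1a2 and Crabp2 moved with markers of meningeal fibroblasts, the cells of the brain's coverings in which Aldh1a2 is best known in the adult brain. Over the 11 such markers that were tested, the mean log2 level correlated with Aldh1a2 at Pearson r = 0.95 (permutation p = 1e-05, the smallest the permutations can give, adjusted 0.00117 over 117 relations) and Spearman rho 0.90 (permutation adjusted p = 0.0222). Without standard saline replicates 2 and 3 r was 0.88, and centred on group means 0.95. For Crabp2 r was 0.87 (permutation adjusted p = 0.0538), which did not pass, and rho 0.86 (permutation adjusted p = 0.0398), and r was 0.64 without the same 2 libraries. Values without both libraries that stood apart, the extremes of these markers, are not given. The summed level of the 12 markers ran from 86.6 to 115 TPM in enriched ethanol, 99.4 to 142 in enriched saline, 81.8 to 121 in standard ethanol and 41.1 to 111 TPM in standard saline hippocampus, and none of the 12 was at 0 in any library. For enriched over standard cages in saline mice, 0 of 11 markers passed the adjusted test. At an unadjusted p under 0.05, 5 of 11 were higher, beside 5.43% of all genes. The median log2 fold change of the markers was 0.79, against 0.003 over all genes. Their centred mean log2 level in standard saline was 0.27, -1.03 and -0.48 in replicates 1, 2 and 3. Marker fold changes without standard saline replicate 2 are not given. Aldh1a2 and Crabp2 also had r of 0.77 and 0.82 with striatal markers (permutation adjusted p = 0.144 and 0.0733), rho of 0.58 and 0.62, and r of 0.30 and 0.54 without enriched saline replicate 2 and standard saline replicate 2. With dentate granule cell markers r was -0.54 and -0.57 (permutation adjusted p = 0.576 for each), rho -0.03 and -0.02, and r 0.03 and -0.05 without standard ethanol replicate 2 and standard saline replicate 2. The part of these marker levels in the fold changes of Aldh1a2 and Crabp2 was not tested. In whole tissue, fewer cells of a type and less RNA per cell cannot be told apart.

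**Figure D4:**
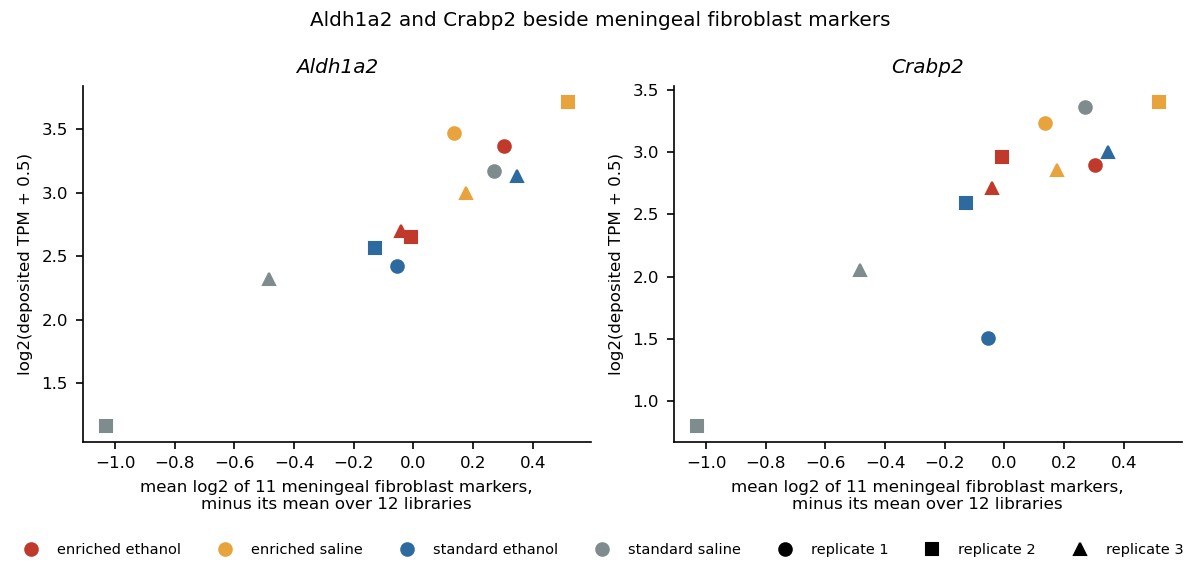
log2(deposited TPM + 0.5) of Aldh1a2 and Crabp2 (y axes) against the mean log2 level of 11 meningeal fibroblast markers, centred over the 12 libraries (x axis), with 1 point per library coloured by group. Standard saline replicate 2 lies lowest on both axes in both panels and enriched saline replicate 2 highest.

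The genes whose levels ran most like each member over the 12 libraries were named by Pearson r, as a description. They were picked for the highest r out of the 14947 genes tested. With 12 libraries, such picking gives high r values even among unrelated genes. These r values therefore carry no test and do not show a relation. For Crabp2 they were Ptgds (0.97), a prostaglandin D synthase abundant in meninges, Serping1 (0.95), an inhibitor of complement C1, and Col9a2 (0.95), a collagen. For Aldh1a2 they were Gjb2 (0.97), a gap junction protein, Serping1 (0.96) and Vtn (0.96). Ptgds was highest in enriched saline replicate 2 at 1895 TPM and lowest in standard saline replicate 2 at 321 TPM. Rarg ran with the interferon-inducible RNA sensor Ifih1 (0.90) and with H2-K1 (0.89) and H2-Q4 (0.87), which encode MHC class I proteins. H2-K1 had 32.97, 28.6 and 32.2 TPM in enriched ethanol, 24.1, 37.6 and 46.6 in enriched saline, 23.7, 32.9 and 32.9 in standard ethanol and 37.5, 27.0 and 46.1 TPM in standard saline hippocampus, so both genes peaked in enriched saline replicate 3 and standard saline replicate 3. Rarb ran with Heph (0.93), Tubb4b (0.90) and Prpf31 (0.89), Rara with Shq1 (0.88), Steap3 (0.87) and Spen (0.87), and Cyp26b1 with Abcd4 (0.86), Olfml3 (0.85) and Sphk2 (0.84). Rxrb ran with Kmt5b (0.88), Rxra with Fam135a (0.87) and Crabp1 with Rhbdd3 (0.83).

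The rest of the pathway gave no call either. Of 58 further genes in 6 lists, 41 were tested and 0 passed the adjusted test in any of the 7 comparisons. At an unadjusted p under 0.05, ethanol over saline had 3 of the 41 higher and 0 lower in standard cages, where 3.75% of all genes were higher and 3.64% lower. In enriched cages it had 2 higher and 3 lower (3.85% and 3.91% of all genes), and on average 4 higher and 1 lower (3.97% and 4.05%). Enriched over standard cages had 3 higher and 3 lower in saline mice (5.43% and 4.6% of all genes), 0 higher and 1 lower in ethanol mice (2.91% and 2.66%), and 2 higher and 3 lower on average (4.14% and 3.82%).

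In uptake and transport 5 of 8 genes were tested. Rbp4, the carrier of retinol, stood at 12.05, 14.5 and 17.1 TPM in enriched ethanol hippocampus, 18.8, 20.2 and 17.4 TPM in enriched saline hippocampus, 15.8, 15.8 and 15.6 TPM in standard ethanol hippocampus and 13.02, 10.2 and 12.6 TPM in standard saline hippocampus. The enriched saline libraries were above every other library, and the standard saline libraries were below all 3 standard ethanol libraries. Between ethanol and saline, 15.2% of all genes did not overlap in enriched cages and 12.1% in standard cages. Between enriched and standard cages in saline mice, 14% did not overlap. The share of genes with 1 group above every other library is not given, and 17.4 TPM stood close to 17.1 TPM. Enriched over standard cages in saline mice was 0.64 (SE 0.13, adjusted p = 0.218, limma), and it lay between 0.54 and 0.70 with any 1 library left out. Ethanol over saline was -0.37 in enriched cages (adjusted p = 0.592, limma, and -0.24 without enriched ethanol replicate 1) and 0.39 in standard cages (adjusted p = 0.527, limma), and the interaction was -0.76 (SE 0.18, adjusted p = 0.509, limma). Stra6, the cell-surface receptor for retinol and its carrier, had an ethanol over saline value of -0.46 on average (adjusted p = 0.5003, limma). Stra6, Rdh5 and Dhrs3 were each highest in enriched saline replicate 2, the library with high choroid plexus markers, at 5.66, 31.6 and 25.9 TPM, and the part of that tissue in their values was not tested.

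In synthesis 12 of 20 genes were tested. Aldh1a1 ranged from 66.6 to 96.0 TPM over the 12 libraries and Aldh1a3 from 0.59 to 1.70, so Aldh1a1 was the ALDH1A gene with the highest level. Dhrs3, which turns retinal back to retinol, had an ethanol over saline value of -0.26 in enriched cages (adjusted p = 0.625, limma, and -0.17 without enriched saline replicate 2). Of the CYP26 genes other than Cyp26b1, Cyp26a1 ranged from 0.32 to 1.73 TPM and Cyp26c1 from 0 to 0.34, both below the level needed for testing. Among the other receptors, Rxrg ranged from 1.95 to 4.12 TPM, and Ppard had an enriched over standard value of -0.43 in saline mice (adjusted p = 0.467, limma).

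In the 11 coactivators and corepressors, all tested, Med1, a Mediator subunit that contacts nuclear receptors, had an ethanol over saline value of 0.22 on average (adjusted p = 0.403, limma). Hdac3, a deacetylase of the corepressor complex, stood at 49.0, 53.1 and 55.5 TPM in enriched ethanol hippocampus, 57.4, 65.6 and 57.4 TPM in enriched saline hippocampus, 59.1, 58.5 and 60.9 TPM in standard ethanol hippocampus and 58.1, 57.4 and 52.6 TPM in standard saline hippocampus. Its enriched ethanol libraries were below all enriched saline ones (15.2% of all genes did not overlap there). Its standard ethanol libraries were above all standard saline ones (12.1% of all genes). The Hdac3 interaction was -0.28 (SE 0.10, adjusted p = 0.614, limma). Among response genes, 9 of 14 tested, Tgm2, a transglutaminase induced by retinoic acid, had an enriched over standard value of 0.37 in saline mice (adjusted p = 0.452, limma, and 0.22 without standard saline replicate 2), and Rarres2 one of -0.44 in ethanol mice (adjusted p = 0.894, limma), which ran from -0.73 without enriched ethanol replicate 3 to -0.17 without enriched ethanol replicate 1. Cdx1 and Stra8 were listed at 0 in every library.

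**Figure D5:**
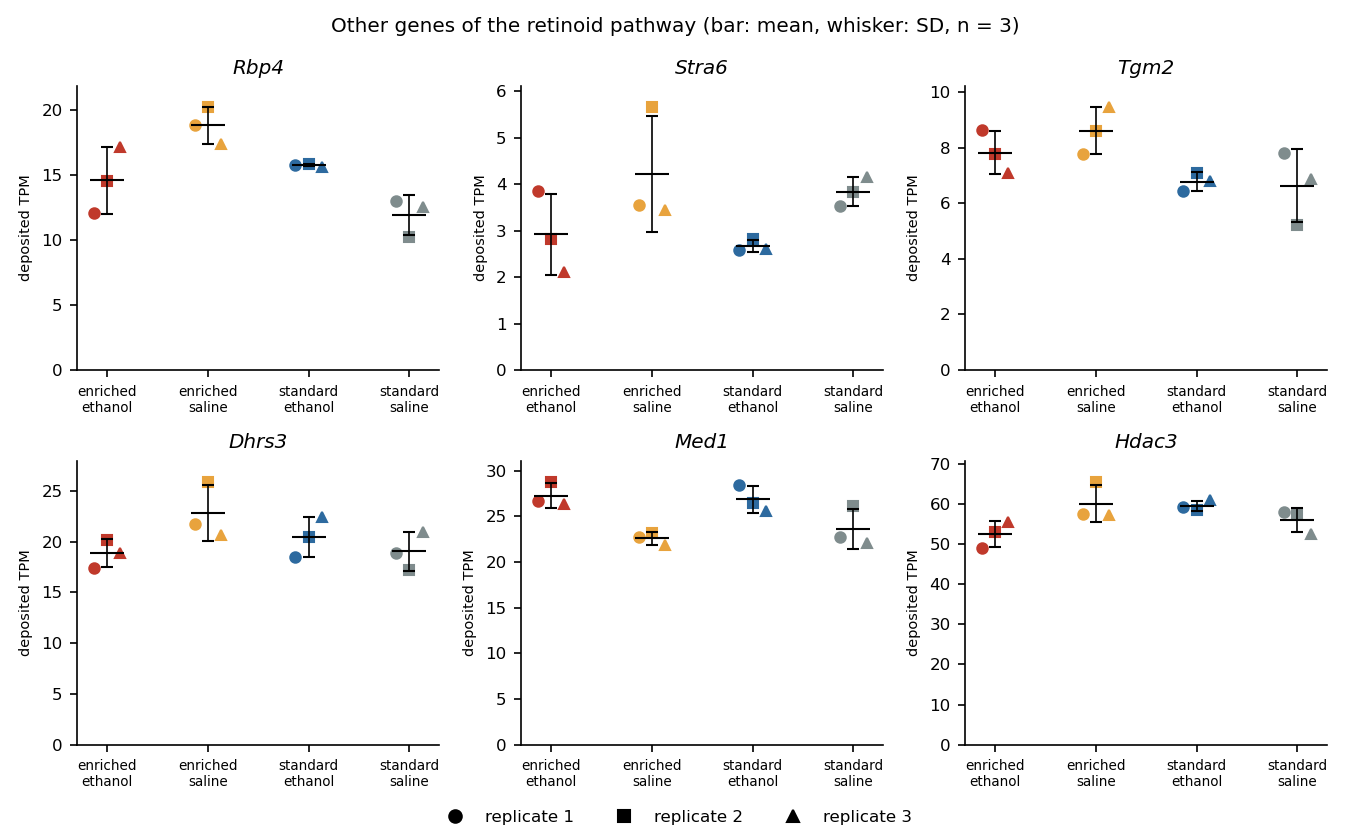
Deposited TPM (y axis, from 0) of 6 other genes of the retinoid pathway in the 4 groups (x axis), with 1 point per library, a bar at the mean and whiskers of 1 SD (n = 3). The Rbp4 panel shows enriched saline libraries highest and standard saline libraries below the standard ethanol ones, and the Stra6 and Dhrs3 panels each have their highest point in 1 library, enriched saline replicate 2.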

How the data were processed

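RNA from dissected hippocampus was made into stranded libraries after ribosomal RNA depletion, per the labels' protocols. The submitters' processing notes name CASAVA, kallisto, sleuth and mm10, without versions or roles. The deposited values are named TPM by the authors, but the columns sum to between 973187 and 1024536, so they were handled as a deposited signal proportional to TPM, not as the plain TPM the design assumed; the test is the same. Depth is unknown, so no counting interval is given, and the counting's strand and annotation settings were not given.

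limma 3.58.1 (R 4.3.3) fitted 1 mean per group to log2(TPM + 0.5) for 14947 genes (mean of 1 TPM or more over 12 libraries), with a mean-variance trend (8 residual degrees of freedom, 3.82 from the prior). 7 contrasts were tested (two-sided, Benjamini-Hochberg across every gene, threshold 0.05). Correlations used 100000 permutations, two-sided, adjusted over their family. Genes of like level lay within 0.5 on the log2 scale. Loci came from GENCODE M21 on GRCm38, which gave symbols for 35827 identifiers. The test was run on simulated data with independent normal errors for each gene. Shifts shared by many genes, as from tissue content, were not simulated, and the share of changes recovered is not given here. Genes named beside each member were the 3 with the highest Pearson r, but only the highest for Rxrb, Rxra and Crabp1. Genes with Gm or Rik names or without a symbol were left out of that ranking. Pathway genes named were those with the smallest p of their list in a comparison. Aldh1a1, Aldh1a3, Cyp26a1, Cyp26c1, Rxrg, Cdx1 and Stra8 fall outside that rule and were named for their level after their values were seen. The levels of 1 listed gene are not reported here. The members and lists were chosen with earlier results of these data known. Alternatives were other pseudocounts (0.1 and 1), no filter or a mean of at least 5, rescaling, quantile normalization, the replicate number as a block and each library left out. Leaving out standard saline replicate 2 and enriched saline replicate 2 together was chosen after seeing the data. Deviations from group means correlated at -0.15 to 0.058 over 18 same-numbered pairs of libraries from different groups. Different-numbered pairs gave -0.087 to 0.12. The labels do not say that the numbers pair samples, and this check cannot exclude a shared litter, cage or batch.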

Additional observations from a re-analysis of the deposited data

Results flagged for a closer look

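Rbp4 and Hdac3 were picked out because the ethanol libraries lay wholly on one side of the saline libraries in enriched cages and wholly on the other side in standard cages. Ethanol and saline libraries did not overlap for 15.2% of all genes in enriched cages and 12.1% in standard cages. The share of all genes with the crossed pattern is not given. The interactions below come from the same values that picked the genes and add no support. For Rbp4 the interaction of ethanol and enrichment was -0.76 on the log2 scale (SE 0.18, adjusted p = 0.509, limma), and it ran from -0.88 to -0.64 with 1 library left out. For Hdac3 it was -0.28 (SE 0.10, adjusted p = 0.614, limma), and the lowest standard ethanol library, 58.5 TPM, stood close to the highest standard saline library, 58.1 TPM. Neither interaction passed the test, and the cause of these patterns was not tested. With 3 libraries a group, single libraries could not be screened as outliers.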

How the results depend on the processing

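None of the 9 genes passed the adjusted test in any of 1309 refitted values under 21 other settings, and the smallest adjusted p was 0.146 (limma), for Aldh1a2 in enriched over standard cages in saline mice without standard saline replicate 1. Of the 63 fold changes of these genes, 27 changed sign with some library left out and 15 with another setting, none of them past the threshold, and the largest of them was 0.60 in size. The counts over all genes were small and moved with the settings. Ethanol over saline in standard cages called 2 genes, against 0 with a pseudocount of 0.1, 7 without a filter, 0 at a mean of at least 5, 7 without both libraries that stood apart and 2 to 7 with 1 library left out. In enriched cages it called 0 genes (1160 at an unadjusted p under 0.05), against 2, 1 and 1 for pseudocount 0.1, no filter and both libraries left out, and 0 to 15 with 1 left out. Averaged over housing it called 2 genes, against 0 with pseudocount 0.1, 6 without a filter, 0 at a mean of at least 5, 1 after quantile normalization, 1 with the replicate block, 0 without both libraries and 1 to 10 with 1 left out. Enriched over standard cages in saline mice called 4 genes, against 1 with pseudocount 1, 7 without a filter, 1 at a mean of at least 5, 2 after quantile normalization, 10 without both libraries and 1 to 20 with 1 left out. In ethanol mice it called 1 gene, against 0 with pseudocount 0.1, 2 without a filter, 0 at a mean of at least 5, 2 without both libraries and 1 to 21 with 1 left out. Averaged over exposure it called 3 genes, against 6 without a filter, 0 at a mean of at least 5, 9 without both libraries and 2 to 12 with 1 left out. The interaction called 2 genes, against 0 with pseudocount 0.1, 4 without a filter, 0 at a mean of at least 5, 1 after quantile normalization, 0 without both libraries and 1 to 12 with 1 left out. The highest counts came without enriched ethanol replicate 3 or standard saline replicate 2, and the cause was not tested. The count of correlated pairs among the 9 genes was 1, against 0 without both libraries. The replicate block changed no call among the 9 genes (smallest adjusted p = 0.454, limma). Depth is unknown, so what it limits cannot be given, and 3 libraries a group leave intervals wide for Crabp2, Rarg and Aldh1a2.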
